A study of Mus musculus with 24 samples.

Results

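The Trim genes encode the tripartite motif proteins, a family of mostly ubiquitin ligases. Members here were the rows of the normalised expression table whose symbol begins with Trim and a number and whose log2 value reached 4 in at least 3 of the 24 libraries. Of 57 rows with such a symbol, 40 were members, out of 24273 genes in the table, and 37 of the 40 reached the level in all 24 libraries. The members were thus chosen by their log2 levels in these libraries, and that they are expressed is no result. Just inside lay Trim46, with a highest log2 value of 4.37 and 5 libraries at the level, Trim6 with 17 such libraries and Trim7 with 22. Just outside lay Trim17, with a highest log2 value of 4.03 and 1 library at the level, and Trim29 and Trim34b, whose highest values were 3.57 and 2.83. The 5 libraries of Trim46 were all labelled FosKO, so its genotype difference follows in part from the rule and is given as a description.

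The libraries were RNA sequencing libraries of bone marrow-derived macrophages (BMDMs), macrophages grown in culture from bone marrow of C57BL/6 mice. LysM-Cre, which expresses Cre recombinase from the lysozyme locus Lyz2 in myeloid cells, was present in both genotypes by the series' design and the study's text. The group labelled FosKO carried 2 floxed Fos alleles as well, and the control group, labelled LysM, carried LysM-Cre alone by the series' design and 1 floxed Fos allele besides by the study's text. The macrophages received lipopolysaccharide (LPS), the cell wall component sensed by TLR4, at a dose of 100 ng/ml, and were taken after 0.5, 1 or 2 h or untreated (0 h). This made 8 groups with 3 libraries in each, and the labels do not say whether these came from separate mice, so p-values measure the spread between libraries.

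In the textbook scheme a TRIM protein joins a RING domain, which brings a ubiquitin-conjugating enzyme to a substrate, to B-box and coiled-coil domains and, often, to a C-terminal PRY-SPRY domain that binds the target. Many TRIM genes are induced by type I interferon, and in macrophages their products act on the RNA sensor RIG-I, on the DNA sensing pathway of cGAS and STING, and on signalling from Toll-like receptors. Fos is a subunit of the AP-1 transcription factor. A difference of 1 on the log2 scale is a doubling, and a gene is said to be called, or to have risen or fallen, where the adjusted p of a limma fit across 13901 genes was under 0.05.

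The Fos level did not run one way between the genotype labels. At 0 h the Fos log2 value lay between 12.41 and 12.72 under the FosKO label and between 11.07 and 11.17 under the LysM label. It was higher under the FosKO label after 1 and 2 h as well and lower after 0.5 h, so groups are named by their labels throughout, and the sign of every genotype difference rests on those labels. Under the LysM label Fos rose by 2.41 after 0.5 h of LPS. Its mean log2 value there was 11.11 at 0 h, 11.15 after 1 h and 9.52 after 2 h. Under the FosKO label its changes of 0.15, 0.18 and 0.20 in order of time were not called. A value per gene covers all exons and does not show what a floxed allele still encodes. Lyz2, the Cre locus, was lower in LysM at every time, with a mean log2 value of 10.94 at 0 h against 16.10 in FosKO. At 2 h the means were 11.26 and 16.32. The labels thus differed in the level of this locus as well as in their floxed Fos alleles. Which of these a FosKO minus LysM difference goes with cannot be told apart in this design. All 7 macrophage markers were well expressed, with a summed log2 level of 17.1 to 17.4 in LysM and 17.1 to 17.5 in FosKO. Within that list the mean log2 value was higher under the FosKO label for 3 markers, Mertk (9.68 in LysM and 10.80 in FosKO), Fcgr1 (12.48 and 13.20) and Cd68 (15.10 and 15.29), and lower for 4, Itgam (14.44 and 14.27), Adgre1 (14.91 and 14.82), Csf1r (15.17 and 15.10) and Cd14 (14.67 and 14.64). The summed log2 level of 5 neutrophil markers was 5.69 to 6.70 in LysM and 5.15 to 5.83 in FosKO. The dendritic cell list was higher in FosKO (12.3 to 12.8) than in LysM (11.3 to 11.7), almost wholly through the interferon-induced gene Bst2, and its other members lay at most at 6.03. The part of these differences in the Trim results was not tested.

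The first question was which Trim genes differed between the genotypes at each LPS time. The Trim30 genes, the neighbouring Trim34a, Trim12a, Trim12c and Trim5, and Trim21, Trim26, Trim14 and Trim25 were higher in FosKO at every time, from before LPS onwards, whereas Trim2, Trim59 and Trim28 were lower at every time. At 0 h 25 of the 40 members were called, 18 higher and 7 lower, where 35.4% of all genes tested were called, 19.5% higher and 15.9% lower. After 0.5 h the members called were 27 (19 higher and 8 lower) against 40.9% of all genes (21.2% higher and 19.7% lower). After 1 h they were 23 (18 higher and 5 lower) against 33.9% (18% higher and 15.9% lower). After 2 h they were 29, split into 16 higher and 13 lower, against 44.6% (24.4% higher and 20.3% lower). These counts hold Trim46, and without it 24, 26, 22 and 28 of 39 were called. Under quantile normalisation the splits in order of time were 15 higher and 7 lower, 18 and 10, 17 and 6, and 16 and 12. Among all genes called, the share that was higher moved under that scaling from 55.1%, 51.9%, 53.1% and 54.6% to 45.3%, 45.6%, 42.8% and 43%. The median log2 difference over the members was 0.07, 0.11, 0.09 and -0.00 in order of time, beside 0.00 over all genes tested at each. Among the 40 members, called or not, the 3 FosKO and 3 LysM libraries did not overlap in 27, 32, 26 and 31 in order of time, beside 44.5%, 50.8%, 45% and 54% of all genes tested. Members had to reach a log2 value of 4, whereas genes tested needed only a linear value of 5, each in 3 libraries. Shares of all genes, here and throughout, are thus not matched to the members for level.

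**Figure D1:**
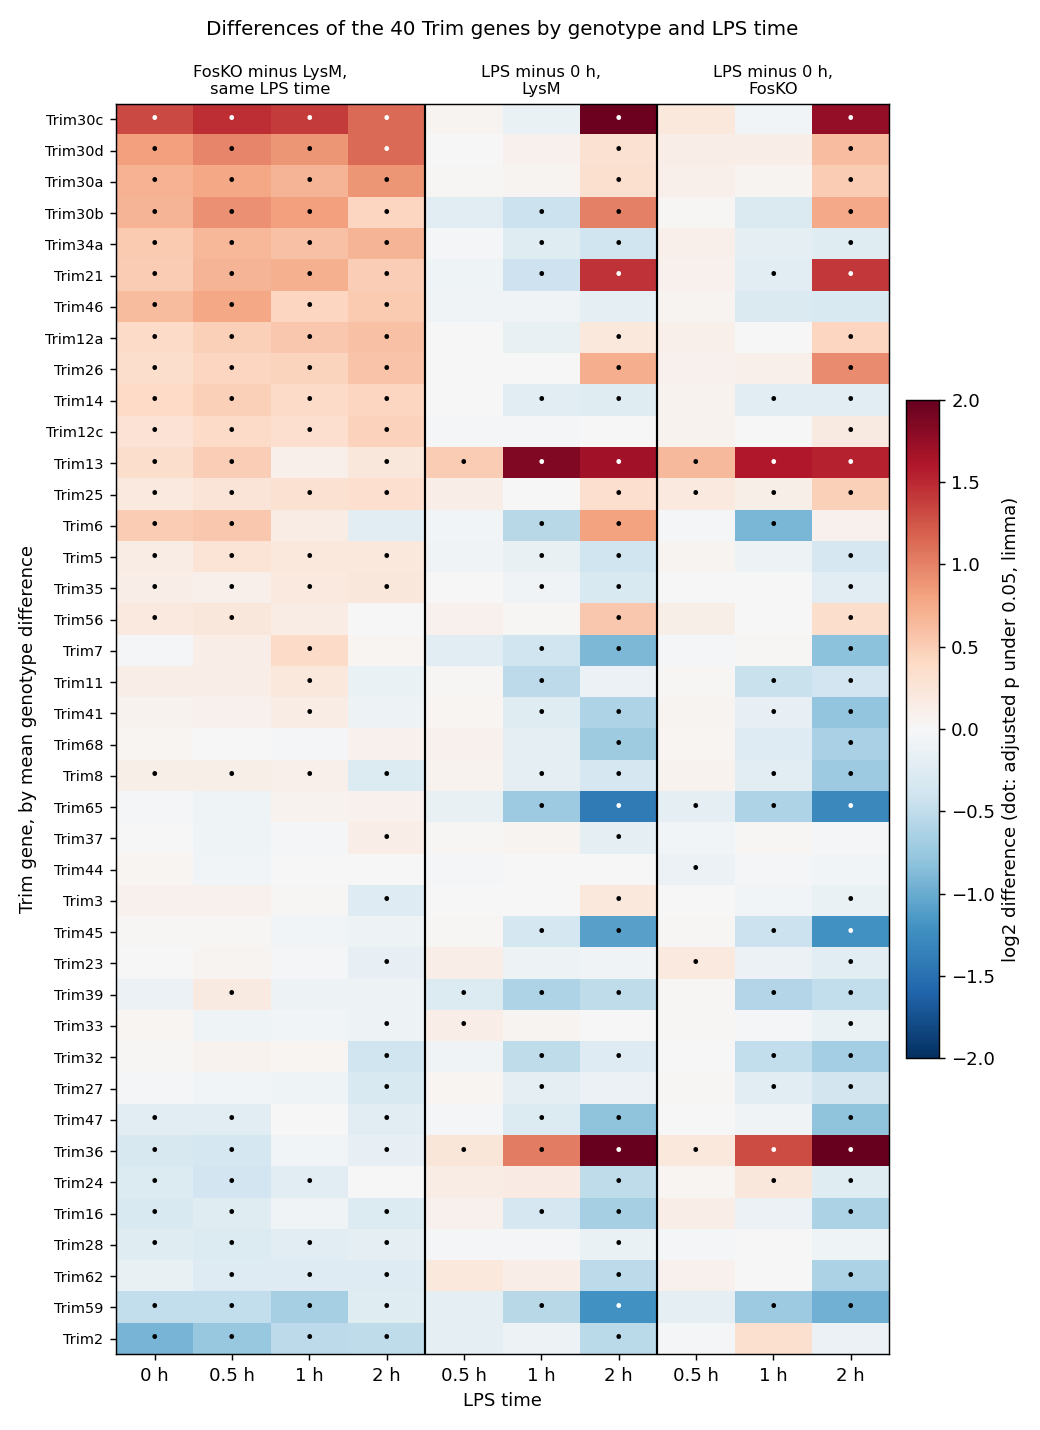
Log2 differences of the 40 Trim genes (rows, ordered by their mean genotype difference) for FosKO minus LysM at each LPS time and for each LPS time minus 0 h within each genotype (columns, LPS time in h). Dots mark an adjusted p under 0.05 by limma. The colours stop at 2.0 in either direction, which Trim36 passed in FosKO at 2 h (2.15). The 4 Trim30 genes form the top rows, with Trim30c differing by 1.48 at 0.5 h, and Trim36 and Trim13 stand out in the LPS columns.

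Trim30a, which restrains signalling from Toll-like receptors to NF-kB, lies at chr7:104409025-104465193 (GRCm38). Its log2 values at 0 h were 12.43, 12.35 and 12.32 in LysM and 12.90, 13.06 and 13.21 in FosKO, and at 2 h they were 12.66, 12.61 and 12.77 against 13.56, 13.53 and 13.61. The genotypes did not overlap at any time, and every FosKO library, stimulated or not, was above every LysM library. The difference was 0.69 at 0 h (SE 0.07, n = 3 and 3, 1.61-fold, limma adjusted p = 2.57e-07), then 0.77 and 0.68 after 0.5 and 1 h, and 0.88 after 2 h (SE 0.07, 1.85-fold, limma adjusted p = 4.62e-09).

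Trim25, the ligase that ubiquitinates RIG-I, lies at chr11:88999376-89020293. It had a small difference with a narrow spread. At 0 h its log2 values were 12.82, 12.82 and 12.83 in LysM and 12.91, 13.05 and 13.09 in FosKO, and at 2 h they were 13.14, 13.12 and 13.21 against 13.47, 13.49 and 13.52. The groups did not overlap. The difference was 0.20 at 0 h (SE 0.04, 1.15-fold, limma adjusted p = 0.00105), then 0.26 and 0.31, and 0.34 after 2 h (SE 0.04, limma adjusted p = 1.98e-06).

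Trim21, a cytosolic receptor for antibody, lies at chr7:102557921-102565486. Its log2 values at 0 h were 10.03, 9.96 and 10.02 in LysM and 10.40, 10.55 and 10.60 in FosKO, with no overlap. At 1 h, where both groups were at their lowest, they were 9.54, 9.57 and 9.68 against 10.24, 10.36 and 10.32. The difference was 0.51 at 0 h (SE 0.07, limma adjusted p = 3.99e-06), then 0.68 and 0.71, and 0.49 after 2 h (SE 0.07, limma adjusted p = 3.87e-06).

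**Figure D2:**
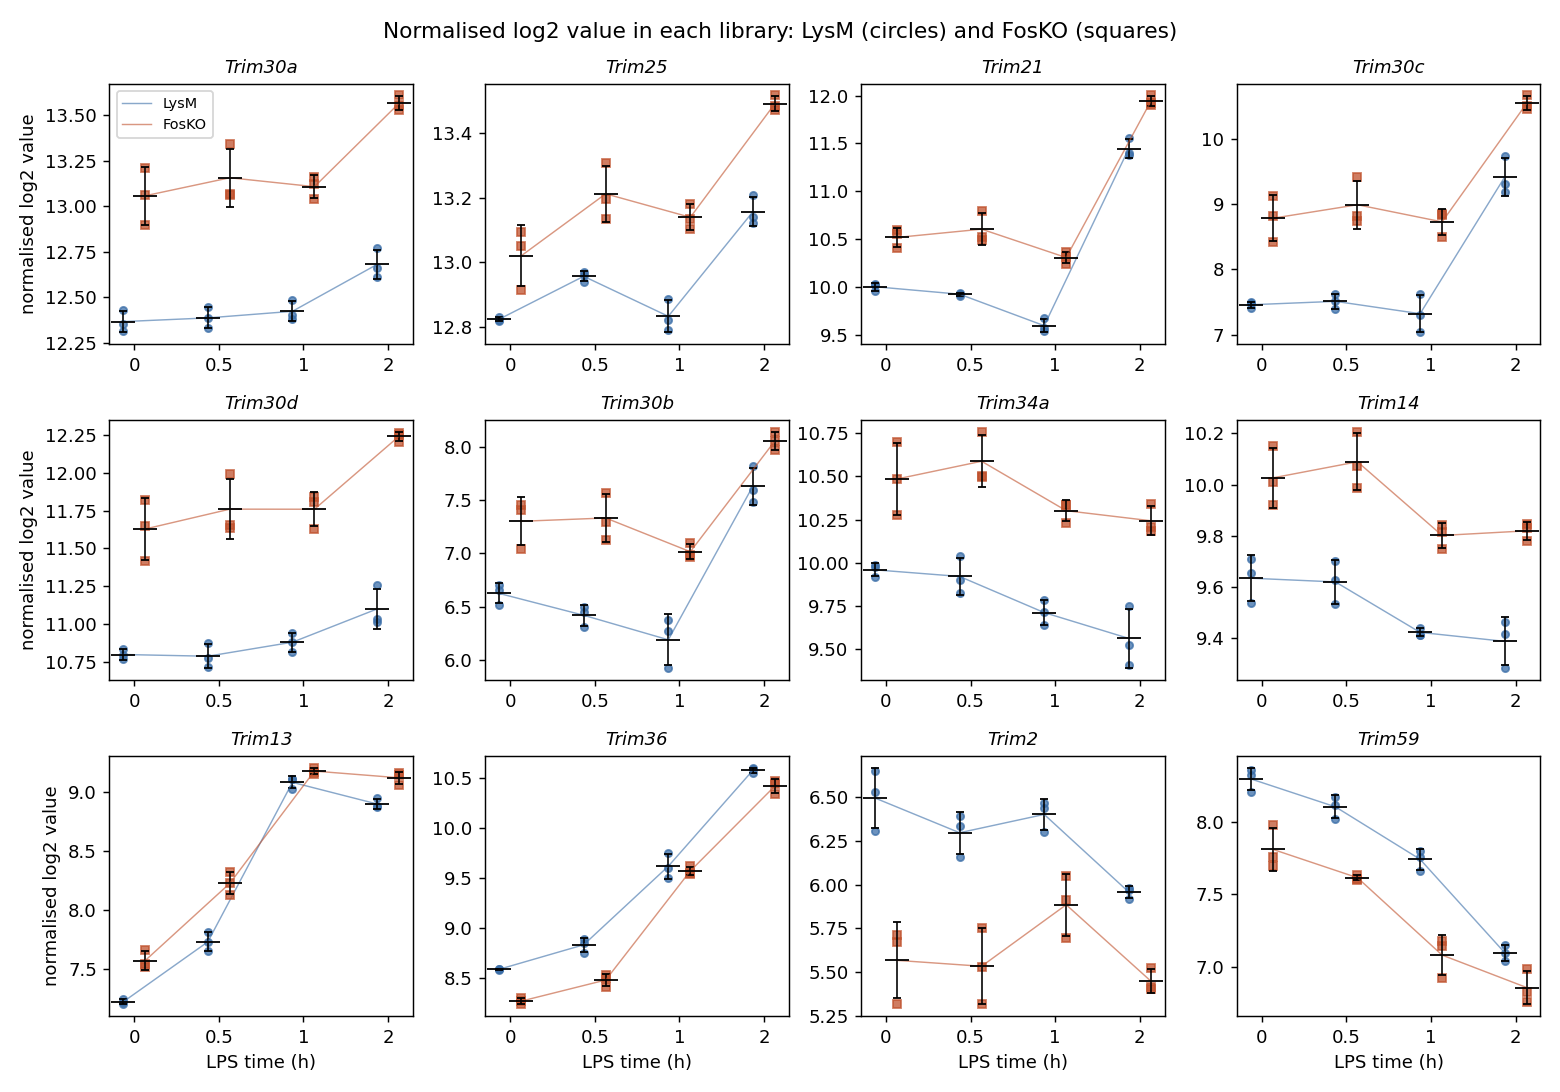
Normalised log2 value of 12 Trim genes in each library (vertical axis, scale differs between panels) against LPS time in h, for LysM (circles) and FosKO (squares), with a black bar for the mean and SD of 3 libraries and lines joining the means. For Trim30a, Trim30c and Trim30d the squares lie above the circles at each time, and for Trim2 and Trim59 below.

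On chromosome 7 the relatives of primate TRIM5, a factor that blocks retroviral capsids, lie together between 104218793 and 104507849 (GRCm38), a stretch of 289.1 kb. Along it come Trim6, Trim34a, Trim5, Trim12a, Trim12c, Trim30b, Trim30c, Trim30a and Trim30d, all of them members, and Trim34b, which is not. All 9 members were called higher in FosKO at the first 2 times and 8 of 9, without Trim6, at the last 2. Their median log2 difference was 0.53, 0.67, 0.59 and 0.59 in order of time. These counts are set beside the shares of all genes called higher, 19.5%, 21.2%, 18% and 24.4%. The 9 genes are neighbours and partly copies of each other, so they are not independent.

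Trim30c, at chr7:104382065-104400837, had the largest genotype difference of any member at 0, 0.5 and 1 h. At 0 h its log2 values were 7.49, 7.48 and 7.40 in LysM and 8.41, 8.82 and 9.12 in FosKO, and at 2 h they were 9.19, 9.31 and 9.74 against 10.51, 10.46 and 10.66. The groups did not overlap, and the FosKO libraries at 0 h all lay below the LysM libraries at 2 h. The difference was 1.32 at 0 h (SE 0.18, limma adjusted p = 9.52e-06), then 1.48 and 1.41, and 1.13 after 2 h (SE 0.18, 2.19-fold, limma adjusted p = 3.71e-05).

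Trim30d, at chr7:104470014-104507849, was the member with the largest difference at 2 h, at which its log2 values were 11.03, 11.02 and 11.26 in LysM and 12.26, 12.20 and 12.25 in FosKO. Before LPS they were 10.84, 10.80 and 10.77 against 11.42, 11.65 and 11.82, again with no overlap. The difference was 0.83 at 0 h and 1.14 at 2 h (SE 0.09 at both, limma adjusted p = 5.34e-09 at 2 h), but the change in LPS response between the genotypes, 0.31, was not called (95% interval 0.04 to 0.59, limma adjusted p = 0.126). Trim30b differed by 0.67 at 0 h (log2 values 6.70, 6.66 and 6.52 against 7.04, 7.46 and 7.40) and by 0.42 at 2 h. Without LysM replicate 1 at 2 h the latter was 0.35 and no longer called.

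In the rest of the locus, Trim34a differed by 0.53 to 0.68 over the 4 times, Trim12a by 0.38 to 0.59, Trim12c by 0.29 to 0.45 and Trim5 by 0.15 to 0.27, each called at each time. The smallest of these, that of Trim5 at 0 h, was 0.14 and not called without LysM replicate 1 or replicate 3, and that at 1 h was 0.17 and not called in the libraries with high 18S RNA alone. Trim6, which makes free ubiquitin chains that act on the kinase IKKe, differed by 0.51 before LPS and by 0.55 after 0.5 h, was not called after 1 h (0.16), and after 2 h had the opposite sign without a call (-0.21, 95% interval -0.45 to 0.03). The nearest other members on that chromosome lay at some distance from the locus, Trim21 from 102557921, Trim68 from 102677582 and Trim3 from 105604463. Trim21 was higher in FosKO, Trim68 was not called at any time, and Trim3 was called only at 2 h, lower. Reads could be shared within the locus. Of the 50-base words in its transcripts, 39.8% for Trim34a, 36.3% for Trim5, 33.0% for Trim12c, 10.4% for Trim12a, 7.49% for Trim30d and 5.98% for Trim30a occur in another gene, mostly one of these. The values of these genes are therefore uncertain, and by how much was not measured. The share was 0.66% for Trim30c and 0.55% for Trim30b.

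**Figure D3:**
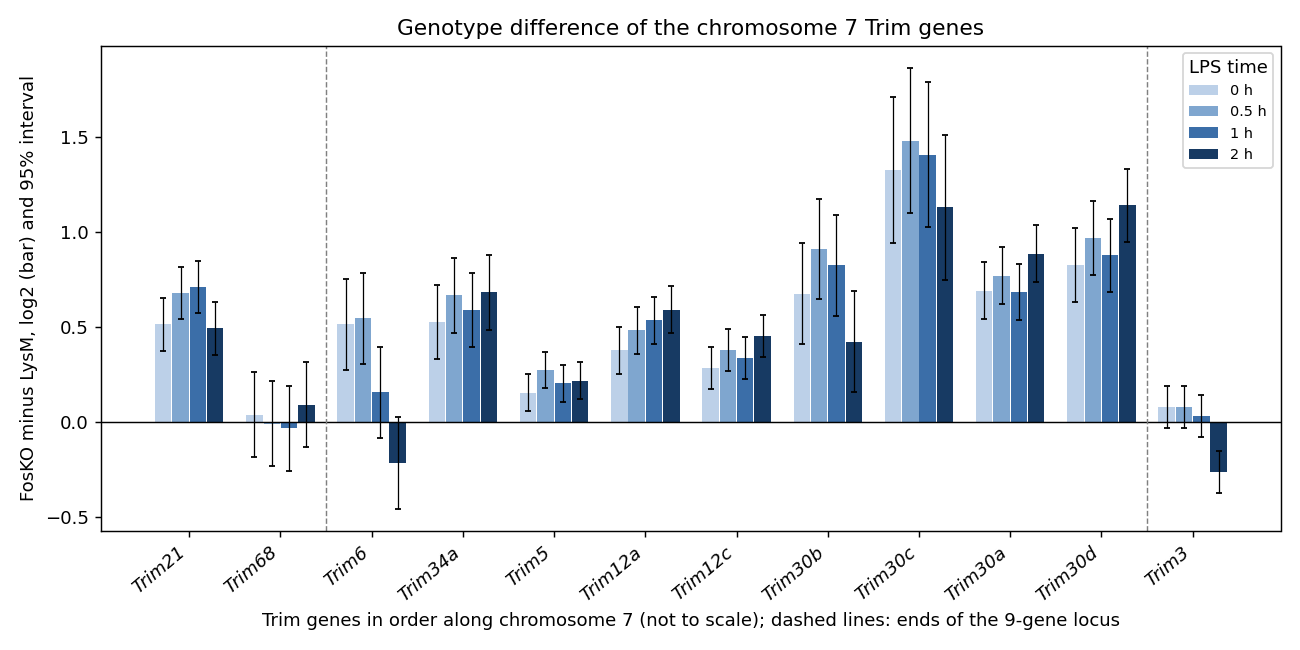
Genotype difference, FosKO minus LysM on the log2 scale, of 12 chromosome 7 Trim genes in their order along the chromosome (horizontal axis, not to scale), with 1 bar for each LPS time in h and whiskers for the 95% interval of limma. All bars of the 9-gene locus lie above 0 except that of Trim6 at 2 h (-0.21), and Trim30c is the highest at 0, 0.5 and 1 h.

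The promoters of the genes that were higher show which of them carry the core of an interferon response element, the sequence bound by the factors that interferon activates. The motif, GAAA and a further GAAA with any 2 bases between them, was searched on both strands (on the other it reads TTTC, any 2 bases, TTTC) in RefSeq promoters of GRCm38.p6, from 250 bases before to 50 bases after an annotated start. A match was in 3.44% of 32851 promoters, or in at least 1 promoter of 3.99% of 27025 genes. Of the 40 members, 31 had a promoter in the RefSeq table and 9 of these a match. Among the 14 members called higher at all 4 times, 12 had a promoter and 8 a match, Trim5, Trim12a, Trim12c, Trim21, Trim26, Trim30a, Trim30d and Trim34a, and the 4 without were Trim25, Trim30b, Trim30c and Trim46. Among the 3 called lower at all 4 times, Trim2 had a match, and none of the 16 other members with a promoter had one. A match is a description and not a bound site, and several of these promoters are copies of one another. Whole promoters are shown for 3 genes, the markers Trim30a and Trim21, and Trim30d beside its copy Trim30a. They are chr7:104465144-104465443, chr7:104507800-104508099 and chr7:102565433-102565732, each on the minus strand and written 5′ to 3′ along the gene, with motif matches in capitals.
Trim30a: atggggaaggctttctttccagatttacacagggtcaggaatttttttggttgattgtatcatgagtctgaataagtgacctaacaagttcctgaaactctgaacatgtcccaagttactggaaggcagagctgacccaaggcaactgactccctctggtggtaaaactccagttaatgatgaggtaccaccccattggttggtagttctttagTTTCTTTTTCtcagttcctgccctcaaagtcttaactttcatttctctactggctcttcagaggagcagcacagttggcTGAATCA
Trim30d: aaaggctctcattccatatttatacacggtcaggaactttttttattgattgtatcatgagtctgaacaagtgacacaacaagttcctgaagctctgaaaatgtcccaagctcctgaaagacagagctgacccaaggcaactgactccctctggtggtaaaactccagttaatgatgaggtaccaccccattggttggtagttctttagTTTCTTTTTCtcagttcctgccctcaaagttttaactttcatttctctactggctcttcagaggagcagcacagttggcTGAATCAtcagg
Trim21: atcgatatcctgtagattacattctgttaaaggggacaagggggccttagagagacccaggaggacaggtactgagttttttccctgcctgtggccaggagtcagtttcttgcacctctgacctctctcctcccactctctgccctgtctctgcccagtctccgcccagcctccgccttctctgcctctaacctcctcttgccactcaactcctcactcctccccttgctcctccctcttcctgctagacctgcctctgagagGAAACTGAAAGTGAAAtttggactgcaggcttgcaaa
In Trim30a the match to the interferon response core lies at -36 to -27 from the start and in Trim30d at -41 to -32. A further annotated promoter of Trim30a, chr7:104446076-104446375, has the same match at 2 to 11. In Trim21 a pair of overlapping matches spans 13 to 28 after the start. The Trim30a and Trim30d promoters aligned over 295 bases with 277 identical (93.9%). The second capitalised stretch in both, at 43 to 49 and at 38 to 44, matches TGANTCA, a loosened form of the AP-1 site. The site to which Fos is known to bind with a Jun partner has C or G at its centre, whereas the match was TGAATCA in Trim30a and Trim30d and TGACTCA in Trim2 and Trim44, the other members with one. The loosened motif, read on both strands, was in 7.81% of promoters and in the promoters of 8.97% of genes, and 2 of the 12 members with a promoter that were higher at all times had it. The motifs do not overlap in these promoters.

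The matches of the other members are shown with up to 25 bases on each side, since neighbouring genes proved to share them. The stretches are chr7:104288121-104288180 (Trim5), chr7:104315451-104315510 (Trim12a) and chr7:104353344-104353403 (Trim12c), all on the minus strand, chr7:104244442-104244501 (Trim34a) and chr17:36836961-36837026 (Trim26) on the plus strand, and chr3:84212789-84212835 (Trim2), 1 of several promoters of that gene, on the minus strand.
Trim5: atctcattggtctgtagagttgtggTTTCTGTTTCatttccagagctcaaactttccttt
Trim12a: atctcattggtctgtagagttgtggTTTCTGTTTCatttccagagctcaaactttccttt
Trim12c: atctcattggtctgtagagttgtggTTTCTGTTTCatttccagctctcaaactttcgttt
Trim34a: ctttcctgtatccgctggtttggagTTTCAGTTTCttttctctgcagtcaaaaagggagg
Trim26: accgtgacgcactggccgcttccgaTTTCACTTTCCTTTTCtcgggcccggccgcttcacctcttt
Trim2: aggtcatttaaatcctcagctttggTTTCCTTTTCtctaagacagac
Over these 60 bases Trim5 and Trim12a did not differ, Trim12c differed from Trim12a at 3 bases, and Trim34a differed from Trim12a at 33. The corresponding 60 bases of Trim30a and Trim30d differed at 1 base. The Trim26 stretch holds a pair of overlapping matches, at -160 to -145.

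**Figure D4:**
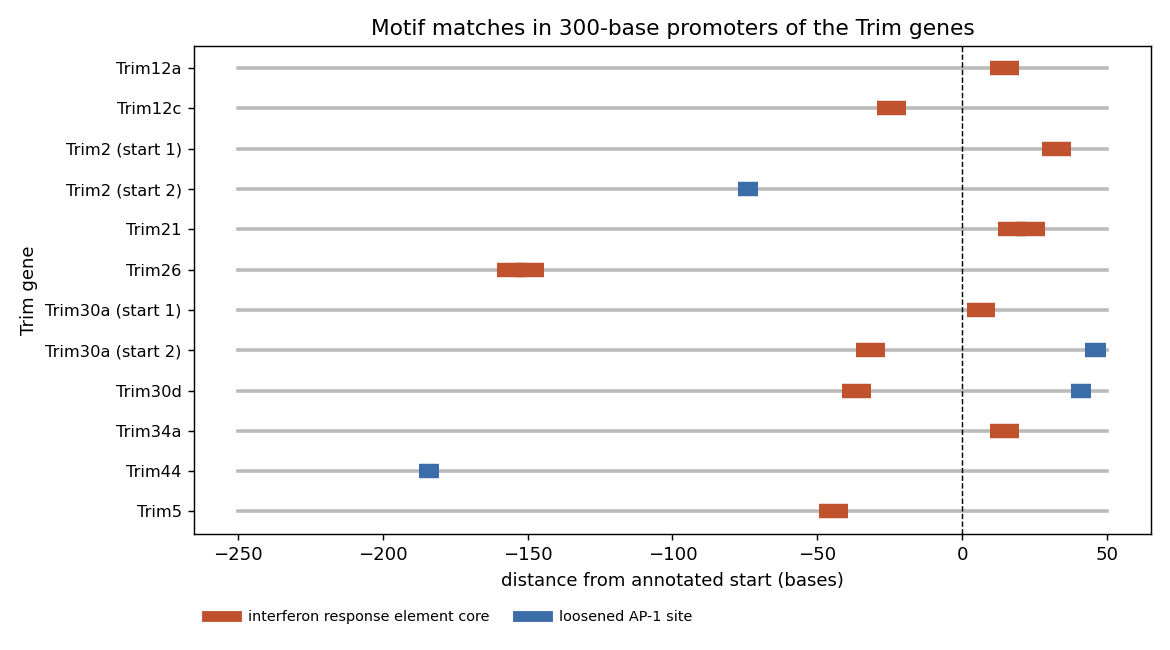
Position of the motif matches (coloured blocks) in the 300-base promoters (grey lines) of the 10 Trim genes with a match, as distance in bases from the annotated start, with orange for the interferon response core and blue for the loosened AP-1 site. Most blocks lie close to the start, as in Trim30a at -36 to -27, and those of Trim26 (-160 to -145), Trim44 (-187 to -181) and the loosened AP-1 site of Trim2 (-77 to -71) lie farther upstream.

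Outside chromosome 7, Trim26, a PRY-SPRY member with roles in interferon signalling, was higher in FosKO by 0.35 at 0 h (log2 values 10.31, 10.20 and 10.22 against 10.55, 10.57 and 10.65) and by 0.57 at 2 h. Trim14, which lacks a RING domain and acts as an adaptor of the mitochondrial antiviral protein MAVS, was higher by 0.38 to 0.47 over the 4 times. Trim35 was higher by 0.11 to 0.22, and its differences at 0 and 0.5 h lost their calls under quantile normalisation. Trim46, a microtubule organiser of neurons, had log2 values of 4.08, 4.37 and 3.76 in FosKO at 0 h against 3.62, 3.36 and 3.32 in LysM. Its values lie near the level that chose the members, where the deposited scale may understate differences.

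Fewer members were lower in FosKO at all 4 times, 3 of 40 beside 7.11% of all genes tested, whereas 14 of 40 (13 of 39 without Trim46) were higher at all 4 beside 11.4%. Trim2, a ligase with NHL repeats known from axons, had the largest of the differences downwards at 0, 0.5 and 2 h. Its log2 values at 0 h were 6.31, 6.53 and 6.65 in LysM and 5.71, 5.31 and 5.67 in FosKO, and at 2 h they were 5.97, 5.98 and 5.92 against 5.40, 5.52 and 5.41. The groups did not overlap. The difference was -0.93 at 0 h (SE 0.12, limma adjusted p = 4.98e-06) and -0.51 at 2 h (SE 0.12, limma adjusted p = 0.00179).

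Trim59, one of a pair of members anchored in membranes, had log2 values at 1 h of 7.76, 7.67 and 7.80 in LysM and 6.92, 7.14 and 7.18 in FosKO. Its difference was -0.49 at 0 h, -0.66 at 1 h (SE 0.08, limma adjusted p = 1.48e-06) and -0.24 at 2 h, where it was not called without LysM replicate 3 (-0.21), FosKO replicate 1 (-0.23) or FosKO replicate 2 (-0.19). Trim28, the KAP1 corepressor that zinc finger proteins bring to retroelements, lay at most at 11.02 in LysM at 0 h, with an SD of 0.01, and between 10.65 and 10.88 in FosKO. Its difference was -0.24 at 0 h and -0.19 at 2 h. Its relative Trim24 was lower at 0, 0.5 and 1 h (-0.28, -0.38 and -0.22), the last of these not without FosKO replicate 2 (-0.19) or replicate 3 (-0.18) at 1 h, and it was not called at 2 h (-0.01). The third member of that group, Trim33, a regulator of TGF-beta signalling, was called at 2 h alone, by -0.10, and that call was lost without LysM replicate 1 (-0.09) or replicate 3 (-0.08) or without FosKO replicate 1 (-0.07) or replicate 3 (-0.10).

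By structure, 22 members listed as the PRY-SPRY type split in order of time into 13 higher and 1 lower, 14 and 2, 15 and 1, and 12 and 3, with median log2 differences of 0.17, 0.26, 0.26 and 0.22. The related genes of the chromosome 7 locus made up 9, 9, 8 and 8 of those higher. That list leaves out 4 members which have the domain too but were listed as without RING (Trim14 and Trim16) or by their COS box (Trim36 and Trim46). Of these, Trim14 and Trim46 were higher at all 4 times and Trim16 and Trim36 lower at 3. Of all genes tested, 19.5%, 21.2%, 18% and 24.4% were called higher and 15.9%, 19.7%, 15.9% and 20.3% lower at these times. The 3 members of the TIF1 type had 0 higher and 2 lower at each time. The 3 with NHL repeats, Trim2, Trim3 and Trim32, had 1 lower at 0, 0.5 and 1 h and 3 lower at 2 h. Of 6 members in a chosen, not complete, list of those known to act on RIG-I, MAVS, cGAS or STING, namely Trim14, Trim21, Trim25, Trim32, Trim56 and Trim65, 4 were higher and 0 lower at each of the first 2 times, 3 and 0 after 1 h, and 3 and 1 after 2 h, beside the same shares of all genes. The 4 include Trim56, whose calls depended on single libraries. Trim32 was the lower one, at -0.40.

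Trim56, a ligase of the STING pathway, was called higher at 0 h (0.19) and 0.5 h (0.23). Without FosKO replicate 3 the differences were 0.09 and 0.15 and neither was called. The call at 0 h was also lost without LysM replicate 1 (0.21), 2 (0.17) or 3 (0.20), and that at 0.5 h without LysM replicate 3 (0.21). Of the 40 members, 4 were called at no time, Trim44, Trim45, Trim65 and Trim68, beside 35.6% of all genes tested. Trim8, a regulator of NF-kB, was the 1 member called in both directions, beside 2.85% of all genes tested, being higher by 0.12 at 0 and 0.5 h and by 0.09 at 1 h, and lower by 0.28 at 2 h. Under quantile normalisation none of its rises was called (0.06, 0.07 and 0.05), that at 0 h also not without LysM replicate 3 (0.09), and that at 1 h also not without LysM replicate 1 (0.08) or FosKO replicate 1 (0.06).

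The surrounding pathway was followed in a list of 21 genes. It holds sensors and signalling proteins, the ISG15 system genes Isg15, Uba7, Ube2l6 and Usp18, the RIG-I ligase gene Rnf135, and Zc3hav1. In order of time 18 were higher and 1 lower, then 15 and 1, 14 and 1, and 13 and 3, with a median log2 difference of 0.37 at 0 h and 0.28 at 2 h. The shares of all genes were 19.5% higher and 15.9% lower, then 21.2% and 19.7%, 18% and 15.9%, and 24.4% and 20.3%. The list was drawn up with results of these data known. Irf7, the interferon-induced transcription factor, differed by 1.44 after 0.5 h and 1.05 after 2 h, Isg15, a ubiquitin-like protein, by 1.58 and 0.81, and Ddx58, which encodes RIG-I, by 0.99 and 0.87. Mavs was higher by 0.08 at 0 h and lower by 0.23 at 2 h, and Irf3 was not called at either (-0.06 and -0.06). Ifnb1, the gene of interferon beta, did not differ detectably at 0 h (0.10, SE 0.12, limma adjusted p = 0.609) and was higher in FosKO at all later times, by 1.69, then 3.18 and then 3.00.

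Of the TRIM proteins under other names, Pml, which builds nuclear bodies, was higher in FosKO at each time, by 0.61 at 0 h (log2 values 10.79, 10.68 and 10.60 against 11.10, 11.33 and 11.48) and by 1.01 at 2 h. Mefv, which encodes the inflammasome protein pyrin, was lower by 0.44 before LPS, when the groups overlapped (5.21, 4.97 and 5.85 in FosKO against 5.80, 5.73 and 5.80 in LysM), was not called after 0.5 h (-0.27), and was lower by 0.69 and 0.54 at the later times. Mid1 was called higher at 0.5 h (0.65) and at 2 h (0.96) and not at 0 h (0.59) or 1 h (0.51). Its log2 values at 0.5 h were 10.51, 9.62 and 10.44 in FosKO against 9.55, 9.56 and 9.51 in LysM. FosKO replicate 2 was the lowest of its group at each time and lay close to LysM at 0.5 h.

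The second question was which Trim genes responded to LPS. In LysM 4 members were called after 0.5 h (3 higher and 1 lower) against 7.24% of all genes (5.09% higher and the rest lower, as in the shares that follow). After 1 h 21 were called (2 higher and 19 lower) against 35.8% (19.2% higher), and after 2 h 33 (13 higher and 20 lower) against 60.8% (30.6% higher). In FosKO 6 were called after 0.5 h (4 higher and 2 lower) against 5.92% (4.45% higher). That count was 3 without FosKO replicate 1 or 2 at 0 h or replicate 1 or 3 at 0.5 h, 3 with the high 18S libraries alone and 1 with only the groups compared. Trim13 was the 1 member called in all alternatives. After 1 h 16 were (4 higher and 12 lower) against 32.6% (17.6% higher), and after 2 h 34 (12 higher and 22 lower) against 62.1% (32.6% higher). The times within a genotype share their 0 h libraries. Most members that moved at 1 h fell, with a median log2 difference over the members of -0.14 in LysM and -0.06 in FosKO, beside 0.00 over all genes. Under quantile normalisation the splits at 1 h were 3 higher and 20 lower in LysM and 4 and 18 in FosKO, where Trim25 turned from a called rise to a called fall (-0.09), and those at 2 h were 10 higher and 24 lower in LysM and 8 and 24 in FosKO. Among all genes called, the share that was higher moved under that scaling too, at 1 h from 53.8% to 37.6% in LysM and from 54% to 35.3% in FosKO, and at 2 h from 50.3% to 40% and from 52.5% to 39.2%.

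Trim13, a ligase in the membrane of the endoplasmic reticulum, was already higher at 0.5 h, the earliest time. In LysM its log2 values averaged 7.22 before LPS and were at most 7.24. They were 7.81, 7.65 and 7.73 after 0.5 h, 9.02, 9.11 and 9.11 after 1 h, and 8.95, 8.87 and 8.88 after 2 h. No stimulated library overlapped with an unstimulated one. The rise was 0.51 at the earliest time (SE 0.05, limma adjusted p = 3.90e-07), then 1.86 (SE 0.05, 3.62-fold) and 1.67, and in FosKO the same times gave 0.65, 1.60 and 1.55. Of its 50-base words, 14.2% occur in the pseudogene Gm9359, and it overlaps with Dleu2 on the other strand.

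Trim36, a microtubule-binding member, rose throughout. Its LysM values were 8.59 in each library before LPS, then 8.76, 8.86 and 8.89, then 9.60, 9.75 and 9.50, and lastly 10.55, 10.59 and 10.60, so each time lay above the one before. At 2 h the rise was 1.99 in LysM (SE 0.05, 3.97-fold, limma adjusted p = 5.10e-18) and 2.15 in FosKO (SE 0.05, 4.44-fold). Its level was lower in FosKO at 0, 0.5 and 2 h (-0.32, -0.35 and -0.16), the last not without LysM replicate 3 (-0.15) or FosKO replicate 2 (-0.12).

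Another set rose at 2 h after no change or a fall at 1 h. Trim30c rose by 1.96 in LysM at 2 h (SE 0.18, 3.88-fold, limma adjusted p = 8.25e-09) and by 1.76 in FosKO, with no call at 0.5 or 1 h in either. Trim21 in LysM went from 10.03, 9.96 and 10.02 at 0 h down to 9.54, 9.57 and 9.68 at 1 h (-0.41) and up to 11.38, 11.40 and 11.56 at 2 h (1.44, SE 0.07, limma adjusted p = 7.78e-14). In FosKO its changes were -0.21 and 1.42. Trim30b fell in LysM by 0.43 at 1 h, which was not called after quantile normalisation (-0.32) or without LysM replicate 1 at 1 h (-0.30), and rose by 1.00 at 2 h, and in FosKO it rose by 0.75 at 2 h.

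Trim26 rose at 2 h by 0.72 in LysM and 0.94 in FosKO. The rises of Trim25 at 2 h, 0.33 in LysM and 0.47 in FosKO, and those of Trim30a, 0.31 and 0.51, were called as well, but not after quantile normalisation, which gave -0.02 and 0.06 for Trim25 and 0.03 and 0.08 for Trim30a. Trim30d, at 0.30 in LysM, likewise lost its call there (0.12), and also without LysM replicate 3 at 2 h (0.22). In the 9-gene locus 6 members rose and 2 fell at 2 h in either genotype, beside the shares of all genes given for 2 h above. Trim6 was among those called in LysM and not in FosKO (0.81 against 0.08) and Trim12c among those called in FosKO and not in LysM (0.01), although its difference in response, 0.17, was not called (limma adjusted p = 0.149). The rise of Trim12c in FosKO (0.18) turned to -0.03 and was not called after quantile normalisation. Those that fell in both were Trim34a, by 0.40 in LysM and 0.24 in FosKO, and Trim5, by 0.39 and 0.33. The call of Trim34a in FosKO was lost without any 1 of 4 libraries, namely FosKO replicate 2 (-0.24) or replicate 3 (-0.14) at 0 h, or FosKO replicate 1 (-0.23) or replicate 2 (-0.21) at 2 h.

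At 2 h in both genotypes the falls were led by Trim65, a ligase of the RNA sensor MDA5, whose log2 values in LysM were 9.15, 9.27 and 9.18 before LPS and 7.76, 7.86 and 7.76 after 2 h. Those in FosKO were 9.13, 9.16 and 9.17 and then 7.91, 7.99 and 7.72, with no overlap between times. The fall was 1.41 on the log2 scale in LysM and 1.28 in FosKO, and at 1 h it was 0.73 and 0.62. That gene overlaps with Trim47 on the same strand, and Trim47 fell by 0.80 at 2 h in both genotypes. Trim59 fell by 1.21 in LysM and 0.96 in FosKO, Trim45 by 1.08 and 1.21, and Trim7 by 0.89 and 0.81. At 1 h Trim39 fell by 0.61 and 0.58 and Trim11 by 0.52 in LysM, and Trim6 fell by 0.55 in LysM and by 0.91 in FosKO. The former was -0.50 and not called in the libraries with high 18S RNA alone.

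Libraries also fell apart by their 18S ribosomal RNA, with a log2 value of 16.65 to 17.00 in 5 libraries and 18.57 to 19.39 in the other 19. Of the 5, a pair were from 0.5 h (LysM replicate 3, FosKO replicate 1), and the others, LysM replicates 2 and 3 and FosKO replicate 1, were from 1 h, so none came from 0 or 2 h and the genotypes were uneven at 1 h. With the high set alone, 23 of the 27 genotype calls at 0.5 h were kept, and 17 of the 23 at 1 h (13 higher and 4 lower). LysM at 1 h is then 1 library, and 13 of the members, against 21 with all libraries, were called there against 0 h, where the lone library is assumed to vary like the others.

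The third question was whether the LPS response differed between the genotypes. No member was called at 0.5 h (limma, 3 at an unadjusted p under 0.05, 0.115% of all genes called) or at 1 h (limma, 7 at an unadjusted p under 0.05, 1.22% of all genes called). At 2 h 15% of all genes were called (7.27% higher and 7.7% lower). Beside that share 7 members were called (4 to 8 with 1 library left out), 1 with a higher and 6 with a lower response in FosKO. The markers were not among them, and their differences in the 2 h response were 0.19 for Trim30a (95% interval -0.02 to 0.40), 0.14 for Trim25 (0.01 to 0.26) and -0.02 for Trim21 (-0.22 to 0.17).

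Trim6 had the largest of these differences. In LysM its log2 values were 4.46, 4.20 and 3.97 at 0 h and between 4.91 and 5.14 at 2 h, whereas in FosKO they were 4.70, 4.91 and 4.56 and then 4.82, 4.76 and 4.82. At 2 h the LysM libraries lay above those at 0 h without overlap and the FosKO libraries within the range of those at 0 h. In between, at 1 h, both genotypes were lower, at 3.71, 3.73 and 3.54 in LysM and 3.85, 3.67 and 3.93 in FosKO. The difference in response was -0.73 (SE 0.16, limma adjusted p = 0.00388).

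Trim32, a ligase with NHL repeats whose mutation causes a muscular dystrophy, had a difference of -0.42 (SE 0.08, limma adjusted p = 0.000575), as its log2 values at 2 h were 7.96, 7.84 and 7.89 in LysM and 7.42, 7.51 and 7.55 in FosKO after near equal values at 0 h. Trim8 was 10.80, 10.72 and 10.68 in LysM and 10.88, 10.83 and 10.83 in FosKO at 0 h, and then 10.40, 10.43 and 10.35 against 10.08, 10.14 and 10.13 at 2 h. Its order had turned over without overlap at either time. The difference in response was -0.39 (SE 0.05, limma adjusted p = 4.86e-06).

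Trim3 rose in LysM by 0.22 and fell in FosKO by 0.13, a difference of -0.34 (SE 0.07, limma adjusted p = 0.00325). The fall in FosKO lost its call without FosKO replicate 1 (-0.11), 2 (-0.14) or 3 (-0.14) at 0 h or replicate 2 (-0.11) or 3 (-0.13) at 2 h. The differences for Trim11 (-0.26), Trim27 (-0.25) and Trim26 (0.22) were each lost in several alternatives. In bulk RNA, fewer cells expressing a gene and less RNA per cell cannot be told apart.

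**Figure D5:**
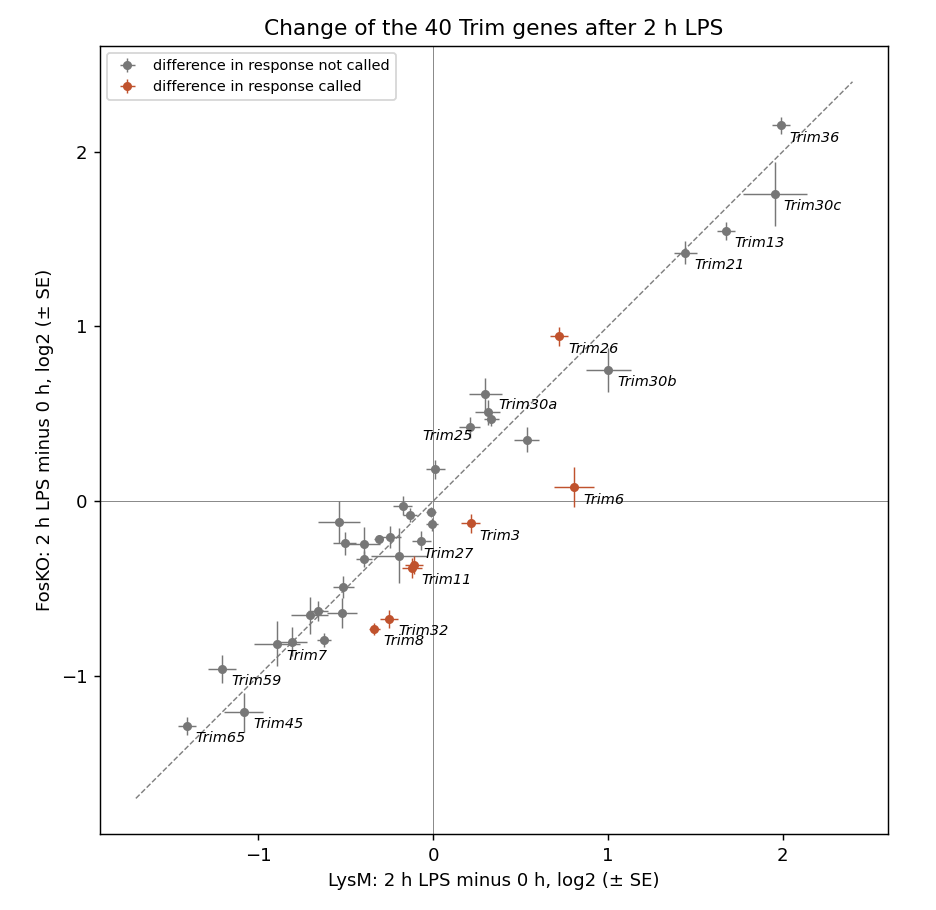
Change of each of the 40 Trim genes after 2 h of LPS against 0 h on the log2 scale, in LysM (horizontal axis) and in FosKO (vertical axis), with SE bars from limma and a dashed line of equal change. Orange marks the 7 genes whose change differed between the genotypes, with Trim6 far below the line at a difference of -0.73, and Trim36, Trim30c, Trim13 and Trim21 at the top near it.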

How the data were processed

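RNA from 24 libraries in 8 groups was sequenced by the authors with strand-specific reads. Per the submitters' processing notes, STAR 2.5.2a, RSEM 1.2.31, DESeq2 1.16.1 and GRCm38 were used, and whether counting used strand is not given in the sources used here. The deposited values are log2 scale normalised expression per gene by the authors and resemble a regularised log, which would understate differences of low genes. This was not measured, and the depth of each library is unknown. The table names Ensembl identifiers, of which 99.6% were in the annotation used here, whereas the study states RefSeq.

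Genes at a linear value of 5 or more in at least 3 libraries (13901) were tested with limma 3.58.1 in R 4.3.3, with a mean-dependent prior, 1 coefficient for each of the 8 groups, 16 residual degrees of freedom and Benjamini-Hochberg adjustment over all genes tested. There were 13 comparisons: FosKO against LysM at 4 times, 3 LPS times against 0 h in each genotype, and 3 differences in response. An exact permutation test of 3 against 3 libraries cannot go below a two-sided p of 0.1 and was not used for calls. The script was tested on simulated data. The 3 markers (Trim30a, Trim25 and Trim21) and up to 5 of the largest called rises and falls in each comparison were listed by rule. Not every gene so listed is described, and other genes named were chosen after their values were seen. The members and gene lists were chosen with earlier results of these data known. Promoters were read from RefSeq (GRCm38.p6), aligned with Biopython 1.88. Alternatives were quantile normalisation, unweighted trimmed-mean factors, a pseudocount of 1 on the linear scale, no filter, only the groups compared, no trend, sets and a term for 18S RNA, a replicate block, and leaving out each library.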

Additional observations from a re-analysis of the deposited data

Results flagged for a closer look

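The response to 2 h of LPS differed between FosKO and LysM, by the interaction term of limma, for 7 of the 40 Trim genes (17.5%), beside 15% of all genes tested. The log2 difference in response, FosKO minus LysM, was -0.73 for Trim6 (limma adjusted p = 0.00388), -0.42 for Trim32 (limma adjusted p = 0.000575), -0.39 for Trim8 (limma adjusted p = 4.86e-06) and -0.34 for Trim3 (limma adjusted p = 0.00325), and these 4 kept their calls in all 22 alternatives. It was -0.26 for Trim11 (limma adjusted p = 0.0345), -0.25 for Trim27 (limma adjusted p = 0.0189) and 0.22 for Trim26 (limma adjusted p = 0.0482), and these calls were lost in 10, 5 and 14 of the 22. Leaving out 1 library moved the difference to as little as -0.21 for Trim11 without FosKO replicate 1 at 2 h, -0.20 for Trim27 without FosKO replicate 1 at 0 h and 0.19 for Trim26 without LysM replicate 1 at 0 h.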

How the results depend on the processing

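Of 225 called values of a member in a comparison, 163 kept their call and direction in all alternatives, 77 of 104 between genotypes, 82 of 114 after LPS and 4 of 7 differences in response. Quantile normalisation reversed the sign of 3 and ended 21 further calls. The 3 were Trim25 at 2 h in LysM (-0.018) and at 1 h in FosKO (-0.092) and Trim12c at 2 h in FosKO (-0.030). Of these, only Trim25 at 1 h in FosKO was called with the new sign (limma adjusted p = 0.0388), and the others were not called. The cause was not tested. With only the high 18S libraries, which removes libraries, 13 members were called at 1 h in LysM and 3 at 0.5 h in FosKO, and 23 and 17 between genotypes at 0.5 and 1 h. With only the groups compared, which leaves fewer residual degrees of freedom, 1 was called at 0.5 h in FosKO. The difference in the 1 h response had 1 call under quantile normalisation and 1 with the replicate block, against 0. Leaving out 1 library gave 22 to 25, 23 to 28, 19 to 21 and 22 to 27 called members between genotypes at 0, 0.5, 1 and 2 h, 3 to 4, 17 to 20 and 32 to 33 after LPS in LysM, 3 to 5, 14 to 18 and 32 to 33 in FosKO, and 0 to 0, 0 to 1 and 4 to 8 for the differences in response.

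Same-numbered libraries of a genotype deviated together only weakly (r of -0.25 to 0.71, median 0.06, over 0.1 in 12 of 36 pairs), so the numbers were not taken as pairs in general, although 22 of 24 libraries had a higher mean r with their own number. The highest r joined FosKO replicate 1 at 0.5 and 1 h, both low in 18S RNA. The lowest joined LysM replicate 2 at 0.5 h, high in 18S RNA, and at 1 h, low in it. The part of the 18S sets in these r was not tested. Of the groups compared, every pair was over 0.1 for FosKO at 0 and 0.5 h alone (0.19, 0.13 and 0.27), and there the same 6 members were called with the replicate block. With that block 25, 27, 23 and 28 members were called between genotypes, 5, 22 and 34 after LPS in LysM, 6, 18 (6 higher and 12 lower) and 35 in FosKO, and 8 for the difference in the 2 h response. The depth of each library was not known, which limits what can be said of Trim46 and Trim6, the lowest members.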
